A study of Mus musculus with 6 samples.

Results

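Transcripts of 9 B cell identity genes were compared between whole lungs of wild-type (WT) and ISM1-/- mice. The genes are *Cd79a*, *Cd79b*, *Ms4a1*, *Pax5*, *Cr2*, *Fcer2a*, *Cd22*, *Blk* and *Fcmr*, which were taken by symbol from the 54532 genes of the deposited count table. All 9 were among the 18689 genes that reached 0.5 CPM (read counts scaled to a common library total) in at least 1 library and were tested. There were 3 WT and 3 ISM1-/- libraries of untreated mice at 2 months old on a C57BL/6J background. *Ism1* encodes Isthmin-1, a secreted protein of the lung. WT mice were bought from InVivos and ISM1-/- mice were bred in-house, and the effect of genotype and that of supplier cannot be told apart. Lungs were perfused with PBS before RNA extraction, which removes blood but not the leukocytes within the tissue.

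B lymphocytes carry a membrane antibody as their antigen receptor, which signals through the CD79 heterodimer and Src-family and Syk kinases. The transcription factor Pax5 holds the cells in the B lineage and controls many of the surface molecules described here, and most B lineage surface genes are shut off again when a cell becomes an antibody-secreting plasma cell. Resting mouse lung holds B cells in its vessels and interstitium, and these can gather in lymphoid aggregates.

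The 9 genes shared a wide spread within the ISM1-/- group. ISM1-/- replicate 1 held about 1.99 times the WT mean (median over the genes), replicate 2 held 1.52 times and replicate 3 held 1.08 times. All 9 genes had a higher mean in ISM1-/- lungs, with a median log2 fold change of 0.59 against 0.0043 over all genes tested. In edgeR's quasi-likelihood test, *Cd79a*, *Ms4a1* and *Blk* rose at an adjusted p under 0.1, and the other 6 did not pass. In a whole lung, more B cells and more transcript per B cell cannot be told apart.

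Total counts ranged from 37606133 to 42345042 per library. The targeted gene *Ism1* was still transcribed in the libraries labelled ISM1-/-, at 69.1 ± 5.72 CPM against 78.9 ± 2.88 CPM in WT (SD, n = 3; log2 fold change -0.19, adjusted p = 0.217 by edgeR), so its gene-level count does not check the labels. Across all genes tested, 4.72% had an adjusted p under 0.1, with 1.38% higher and 3.34% lower in ISM1-/- lungs, and 0.567% also changed at least 2-fold. WT replicate 3 stood apart in genes of developing lymphocytes, with *Rag1* at 27.8 CPM against 0.0482 to 0.470 CPM in the other 5 libraries and *Dntt* at 10.1 CPM against at most 0.343. The 9 B cell identity genes lay between 0.974 and 1.13 times their WT mean in that library, and their median log2 fold change without it was 0.65.

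The members that moved together were also compared in sequence. RefSeq promoters (GRCm38.p6) matched 6 of the 9 genes, namely *Fcmr*, *Cr2*, *Pax5*, *Cd79a*, *Cd22* and *Fcer2a*. The windows below are shown because they hold letters of motifs bound by B lineage factor families. Each is the stretch within 250 bases before the RefSeq start that also lies outside the deposited gene, read 5′ to 3′ on the strand of the gene, with motif matches in capitals. They cover chr7:24897247-24897380 (+) for *Cd79a*, chr1:130865527-130865668 (+) for *Fcmr*, chr1:195176720-195176969 (-) for *Cr2* and chr8:3694176-3694424 (-) for *Fcer2a*.
Cd79a: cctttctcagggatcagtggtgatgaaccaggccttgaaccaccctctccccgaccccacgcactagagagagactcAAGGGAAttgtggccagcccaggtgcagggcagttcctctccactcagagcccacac
Fcmr: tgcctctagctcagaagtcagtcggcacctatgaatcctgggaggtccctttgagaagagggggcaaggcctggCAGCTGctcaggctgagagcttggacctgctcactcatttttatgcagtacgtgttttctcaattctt
Cr2: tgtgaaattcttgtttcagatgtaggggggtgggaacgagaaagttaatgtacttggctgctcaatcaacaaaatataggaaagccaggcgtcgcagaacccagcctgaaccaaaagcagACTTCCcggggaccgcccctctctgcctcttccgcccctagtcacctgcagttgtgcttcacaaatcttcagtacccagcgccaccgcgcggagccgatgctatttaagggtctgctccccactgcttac
Fcer2a: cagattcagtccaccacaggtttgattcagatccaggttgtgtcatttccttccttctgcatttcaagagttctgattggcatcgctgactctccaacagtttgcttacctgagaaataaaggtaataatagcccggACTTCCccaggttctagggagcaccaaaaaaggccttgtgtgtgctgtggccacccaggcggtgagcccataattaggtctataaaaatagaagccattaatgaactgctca

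The capitals mark a short Ebf motif (AAGGGAA) in *Cd79a*, an E-box (CAGCTG) in *Fcmr* and the reverse complement of the Ets core (GGAAGT) in *Cr2* and *Fcer2a*. Across both strands of the whole 250 bases, 7 motifs were searched in 27025 genes, counting any start of a gene. The Ets core was present in 3 of the 6 matched genes (*Cd79a*, *Cr2* and *Fcer2a*) and in 22.2% of all genes. The E-box was present in 2 of 6 (*Fcer2a* and *Fcmr*) and in 14.7% of all genes. The short Ebf motif was present in 2 of 6 (*Cd79a* and *Cd22*) and in 7.31% of all genes, and the Ebf palindrome (CCCNNGGG) in 1 of 6 (*Cd22*) and in 13.4%. The octamer (ATGCAAAT), the PU.1 site (GAGGAAGT, whose last letters are the Ets core) and a Pax5 core (GCGTGAC) were found in 0 of the 6 windows, and in 1.81%, 2.79% and 2.07% of all genes. No motif was common to all 6 genes.

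*Cd79a* (chr7:24897381-24902197, + strand, GRCm38) encodes Igα, which passes on the signal of the antigen receptor together with Igβ. Its level was 22.1, 20.7 and 22.8 CPM in WT replicates 1 to 3 and 40.3, 34.1 and 24.0 CPM in ISM1-/- replicates 1 to 3. All ISM1-/- libraries lay above all WT libraries, although replicate 3 was only just above the highest of them. *Cd79a* rose by a log2 fold change of 0.59 ± 0.154 (SE; adjusted p = 0.0856 by edgeR).

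*Cd79b* (chr11:106311341-106314762, - strand) encodes Igβ, the partner chain. It was measured at 21.3, 19.2 and 24.3 CPM in WT and at 42.5, 30.6 and 23.2 CPM in ISM1-/- lungs. ISM1-/- replicate 3 fell below WT replicate 3, so the groups overlapped. The difference of 0.57 ± 0.184 on the log2 scale did not pass the test (adjusted p = 0.155 by edgeR). Per length, the *Cd79a* level was 0.846 to 0.974 times that of *Cd79b* in WT libraries and 0.854 to 1.01 times in ISM1-/- libraries (ratios of FPKM, fragments per kilobase of transcript and depth). The ratio ranges of the partner chains overlapped between genotypes.

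*Blk* (chr14:63372836-63417037, - strand) encodes a Src-family kinase that acts next to the antigen receptor in B cells. It had 9.39, 8.79 and 9.85 CPM in WT lungs against 20.1, 15.8 and 10.7 CPM in ISM1-/- lungs, with no overlap. *Blk* rose by 0.74 ± 0.190 on the log2 scale (adjusted p = 0.0817 by edgeR), the highest fold change of the 9 genes. *Blk* is also transcribed in some gamma delta T cells. Of the 5 genes of such cells 1 rose, beside 1.38% of all genes tested. It was *Cd163l1*, a scavenger receptor of IL-17-producing cells (log2 fold change 1.19, adjusted p = 0.0577 by edgeR). *Cd163l1* was measured at 1.80, 2.22 and 2.04 CPM in WT and at 5.81, 5.48 and 2.59 CPM in ISM1-/- lungs, so the libraries ranked alike within the ISM1-/- group. The part of such cells in the *Blk* level was not tested.

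*Pax5* (chr4:44524757-44710487, - strand), the transcription factor that commits cells to the B lineage, was the member that differed least. WT lungs had 23.4, 18.1 and 20.2 CPM and ISM1-/- lungs had 36.0, 25.8 and 18.4 CPM. ISM1-/- replicate 3 was below WT replicates 1 and 3, and WT itself varied by 1.29-fold, the widest range in WT among the 9 genes. The log2 difference of 0.38 ± 0.201 did not pass the test (adjusted p = 0.408 by edgeR).

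*Ms4a1* (chr19:11249675-11266241, - strand) encodes CD20, a surface protein of B cells from the pre-B to the memory stage. Its level was 14.2, 14.6 and 16.8 CPM in WT lungs and 30.8, 22.7 and 18.6 CPM in ISM1-/- lungs. The groups did not overlap, and ISM1-/- replicate 3 was farther above the WT mean for *Ms4a1* (1.22 times) than for any other member. *Ms4a1* rose by 0.66 ± 0.160 on the log2 scale (adjusted p = 0.0663 by edgeR), the lowest adjusted p among the 9 genes.

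*Cr2* (chr1:195136811-195176716, - strand) encodes complement receptors that serve as B cell coreceptors and lower the threshold of B cell activation. WT lungs were close together at 8.09, 8.10 and 8.22 CPM, and ISM1-/- lungs had 17.3, 11.4 and 8.82 CPM. All ISM1-/- values were above all WT values, but the spread among ISM1-/- libraries was wide, and 0.62 ± 0.205 on the log2 scale did not pass the test (adjusted p = 0.165 by edgeR). *Cr2* is also transcribed by follicular dendritic cells of lymphoid follicles. Of their 5 listed genes, *Fdcsp* was not matched in the table and *Sostdc1* (1 to 9 counts) was below the filter. Of the 3 tested, *Cxcl13*, which draws B cells into follicles, lay between 1.10 and 2.58 CPM with overlapping groups, and *Coch* lay between 0.265 and 0.659 CPM. *Clu*, which many lung cells also transcribe, fell by 0.20 on the log2 scale (adjusted p = 0.0942 by edgeR).

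*Cd22* (chr7:30865402-30880342, - strand) encodes a sialic acid-binding receptor that dampens antigen receptor signalling. It had 27.1, 24.4 and 24.8 CPM in WT and 44.2, 38.8 and 26.4 CPM in ISM1-/- lungs. The value of ISM1-/- replicate 3 lay between WT replicates, and the log2 difference of 0.52 ± 0.155 did not pass the test (adjusted p = 0.126 by edgeR). An antisense gene, *Gm29439*, overlaps *Cd22* and held 6 to 34 counts per library. Its reads were few beside those of *Cd22*, and the strand setting of the counting is not given in the sources used here.

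*Fcer2a* (chr8:3681737-3694175, - strand) encodes CD23, the low-affinity IgE receptor of mature follicular B cells. Its level was 16.0, 15.7 and 18.0 CPM in WT and 32.9, 25.2 and 16.5 CPM in ISM1-/- lungs, with ISM1-/- replicate 3 inside the WT range. The log2 difference was 0.59 ± 0.200 (adjusted p = 0.178 by edgeR).

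*Fcmr* (chr1:130865669-130880791, + strand) encodes the Fc receptor for IgM. WT lungs hardly differed among themselves, at 11.1, 11.2 and 10.9 CPM, while ISM1-/- lungs had 24.1, 18.3 and 10.7 CPM. ISM1-/- replicate 3 was the lowest of the 6 libraries, and replicate 1 held 2.25 times its level, the widest range within the ISM1-/- group among the 9 genes. The log2 difference of 0.68 ± 0.228 did not pass the test (adjusted p = 0.172 by edgeR).

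**Figure D1:**
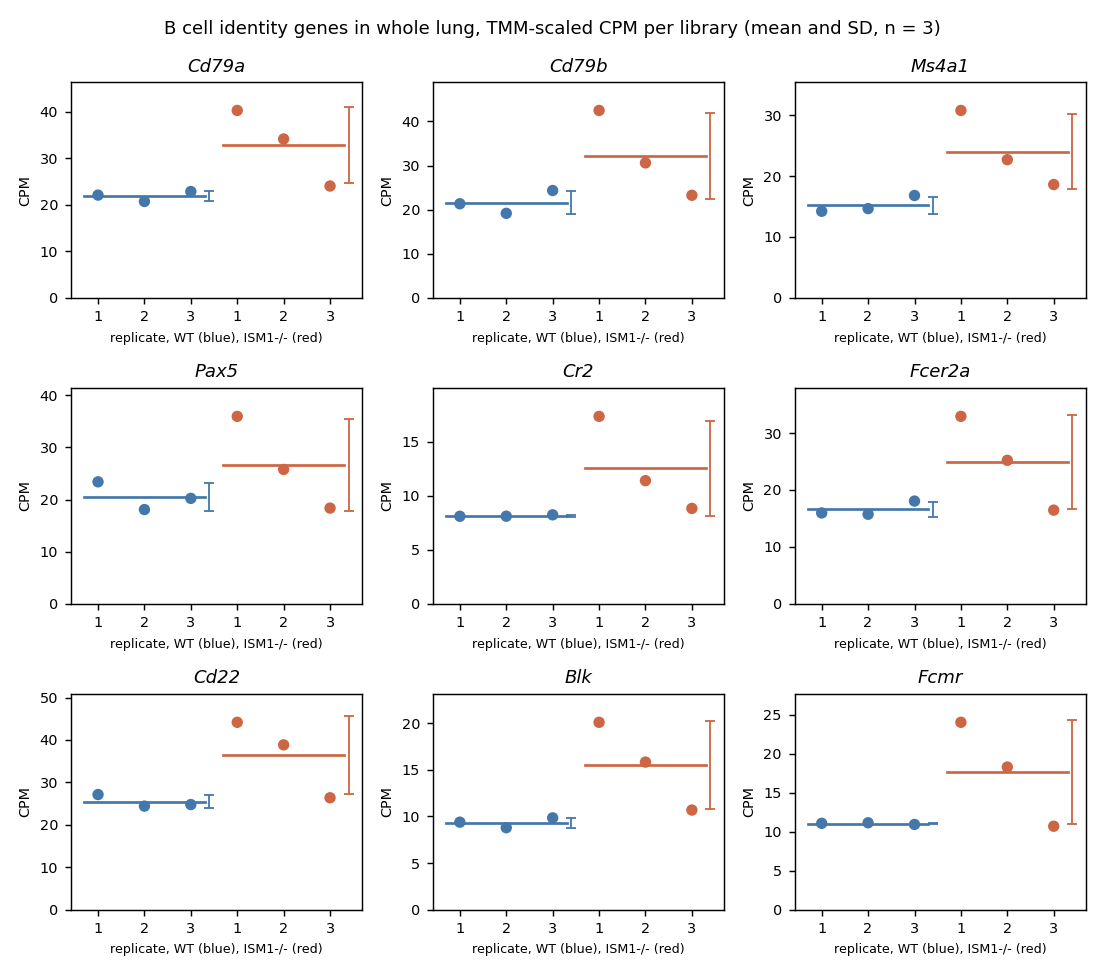
TMM-scaled CPM of each B cell identity gene (vertical axis, from 0) in WT (blue) and ISM1-/- (red) replicates 1 to 3 (horizontal axis), with points for libraries, lines for means and bars for the SD (n = 3). In every panel ISM1-/- replicate 1 is the highest point, and ISM1-/- replicate 3 lies close to or within the WT range, as for *Fcmr* at 10.7 CPM.

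Per gene length, 6 genes lay close together in WT lungs and 3 lay lower. *Cd79b* had the highest mean in WT, at 16.5 ± 2.00 FPKM (SD, n = 3), followed by *Pax5* at 16.1 ± 2.11, *Cd79a* at 15.0 ± 0.765, *Fcer2a* at 14.6 ± 1.13, *Fcmr* at 14.4 ± 0.129 and *Cd22* at 13.4 ± 0.789 FPKM. Each of these overlapped its neighbour in the order, although *Cd79b* (16.3, 14.6 and 18.6 FPKM) was above *Cd22* (14.3, 12.8 and 13.0 FPKM) in all WT libraries. *Blk* was lower at 6.35 ± 0.369 FPKM, then *Ms4a1* at 5.29 ± 0.486 and *Cr2* at 3.95 ± 0.0400 FPKM, and these did not overlap their neighbours. In ISM1-/- lungs *Cd79b* again had the highest mean, at 24.4 ± 7.60 FPKM, while *Pax5*, at 20.8 ± 7.06 FPKM, had 4 genes above it rather than 1, and *Cr2* again had the lowest, at 6.06 ± 2.16 FPKM.

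The library-by-library comparison placed ISM1-/- replicate 1 above all 5 other libraries for 9 of 9 genes, a position it held for 17.2% of all genes tested. Relative to the WT mean of each gene it lay at 1.74 to 2.18 times. ISM1-/- replicate 2 lay at 1.25 to 1.69 times, and both replicates were above all WT libraries for 9 of 9 genes, against 17.7% of all genes tested. ISM1-/- replicate 3 lay at 0.893 to 1.22 times and was above all WT libraries for 4 of 9 genes, against 32.5% of all genes tested. These 4 genes, *Cd79a*, *Ms4a1*, *Cr2* and *Blk*, were the ones whose groups did not overlap, which held in this direction for 9.33% of all genes tested. WT libraries lay between 0.879 and 1.14 times the WT mean.

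Summed over the 9 genes, WT libraries had 153, 141 and 156 CPM and ISM1-/- libraries had 288, 223 and 157 CPM. The summed level of ISM1-/- replicate 3 was thus next to that of WT replicate 3. The coefficient of variation ran from 0.927% to 13.0% in WT and from 25.0% to 37.8% in ISM1-/- lungs, and was higher in ISM1-/- for 9 of 9 genes, as for 59.9% of all genes tested with a value. Counting error was between 2.31% and 5.73% of a member's count in any library. Over the 6 libraries, the 36 pairs of members had Pearson correlations of log2 CPM from 0.822 (*Ms4a1* with *Pax5*) to 0.999 (*Cd79a* with *Blk*), with a median of 0.967. These correlations share the same 6 libraries and both genotypes and are given as a description.

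**Figure D2:**
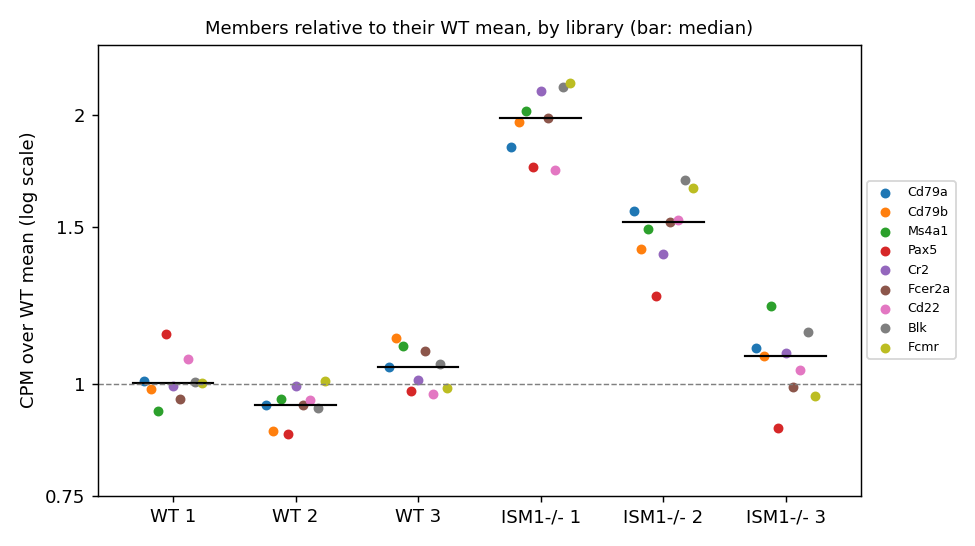
CPM of each B cell identity gene over its WT mean (vertical axis, log scale) in each of the 6 libraries (horizontal axis), with 1 colour per gene and a bar at the median of the 9 genes. The medians of ISM1-/- replicates 1, 2 and 3 are 1.99, 1.52 and 1.08, while the WT medians lie between 0.949 and 1.04.

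In edgeR's test, 3 of 9 genes were called at an adjusted p under 0.1, all higher in ISM1-/- lungs, against the 1.38% of all genes that rose, and 0 were called lower. None of the 9 reached an adjusted p under 0.05 or a 2-fold change in edgeR. An unadjusted p under 0.05 was found for 8 of 9, all except *Pax5*. The share of all genes at that cutoff was not computed, here or for the fits and gene lists below, so such counts are description only. DESeq2's Wald test on the same genes called 5 of 9 at an adjusted p under 0.1, against 2.49% of all genes called higher. It called the same 5 at 0.05 and 0 with a 2-fold change. The calls by DESeq2 added *Cr2* (adjusted p = 0.0297) and *Cd22* (adjusted p = 0.0121) to the edgeR calls.

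The calls changed when single libraries were left out. Without ISM1-/- replicate 3, edgeR called 9 of 9 genes higher, with adjusted p from 0.00539 to 0.0650 and a median log2 fold change of 0.81, and called 3.07% of all genes higher. Without ISM1-/- replicate 1, it called 0 of 9, against 0.42% of all genes, with an unadjusted p under 0.05 for 6 genes and a median of 0.36. *Pax5* then had a log2 difference of 0.10 ± 0.153 and *Blk* one of 0.51 ± 0.160. Leaving out ISM1-/- replicate 2 or any 1 of the WT libraries also left 0 of 9 called, with 8 of 9 at an unadjusted p under 0.05 each time. The median log2 fold change then stayed near the 0.59 of all libraries. It was 0.61 without ISM1-/- replicate 2 and 0.59, 0.55 and 0.65 without WT replicates 1, 2 and 3. The share of all genes called higher was 0.431% without ISM1-/- replicate 2 and 1.31%, 0.188% and 0.473% without WT replicates 1, 2 and 3. All 9 differences were above 0 in each of these fits.

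**Figure D3:**
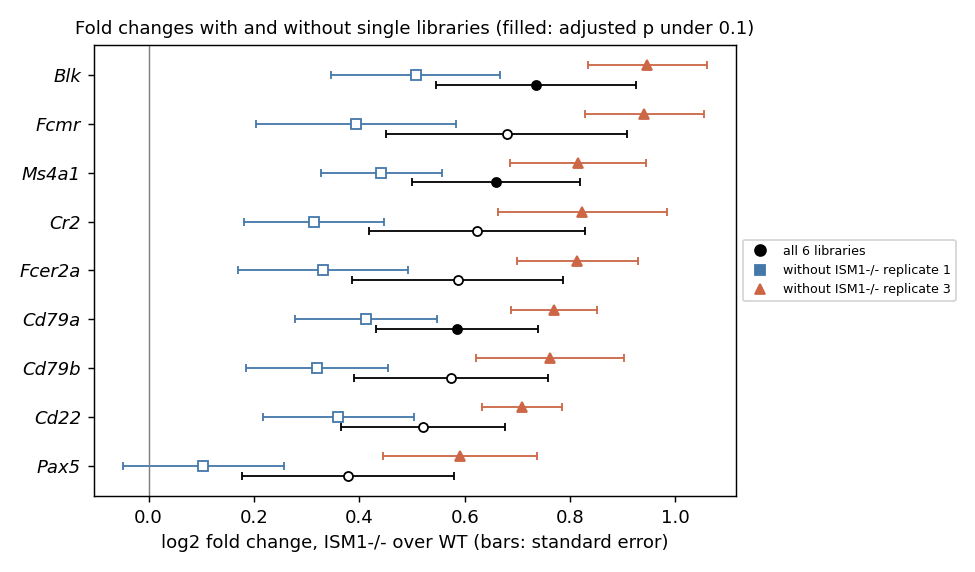
Log2 fold changes of ISM1-/- over WT for each B cell identity gene (horizontal axis; bars, standard error; vertical axis, genes in order of the fold change with all 6 libraries), with all libraries (black), without ISM1-/- replicate 1 (blue) and without ISM1-/- replicate 3 (red). Filled symbols have an adjusted p under 0.1 by edgeR, which holds for 3 genes with all libraries, 0 without replicate 1 and 9 without replicate 3.

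The rest of the B cell program was read from 57 further genes, all of which passed the filter. Of these, 6 rose and 0 fell at an adjusted p under 0.1 by edgeR, beside 1.38% and 3.34% of all genes tested, 29 had an unadjusted p under 0.05 and 47 had a higher mean in ISM1-/- lungs, with a median log2 fold change of 0.30. All ISM1-/- libraries lay above all WT libraries for 13 of the 57 genes and below them for 2, which held for 9.33% and 12.3% of all genes. DESeq2 called 17 of the 57, of which 1 was lower, beside 6.88% of all genes called in either direction.

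Beside 1.38% of all genes tested, 2 of 12 genes of proximal receptor signalling rose. One of them, *Lyn*, a Src-family kinase of B and myeloid cells, was measured at 113, 107 and 114 CPM in WT and at 132, 130 and 124 CPM in ISM1-/- lungs. Its groups did not overlap, and the log2 fold change was 0.21 (adjusted p = 0.0996 by edgeR).

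Among 10 transcription factors, *Spib*, an Ets family factor of B cells and plasmacytoid dendritic cells, rose by 0.76 on the log2 scale (adjusted p = 0.0803 by edgeR), from 11.0, 10.7 and 12.4 CPM in WT to 26.2, 17.9 and 13.7 CPM in ISM1-/- lungs. *Ebf1*, which acts with *Pax5* in B cell commitment and is also transcribed in stromal cells, had a log2 difference of -0.03 (adjusted p = 0.943 by edgeR). *Ebf1* was chosen after its values were seen. Genes of plasmacytoid dendritic cells gave 0 calls among 5 in edgeR, with 1 at an unadjusted p under 0.05 and 0 calls in DESeq2. The most abundant, *Cox6a2*, was the gene at an unadjusted p under 0.05, with 23.8, 13.3 and 12.8 CPM in WT and 7.71, 11.0 and 9.59 CPM in ISM1-/- lungs (log2 difference -0.82, adjusted p = 0.107 by edgeR). Its ISM1-/- libraries were all below WT, as for 12.3% of all genes tested. Which cells of the lung transcribed *Cox6a2* was not tested. *Siglech* lay between 3.42 and 5.19 CPM with overlap and had a log2 difference of 0.21. Of the 5 genes, 2 had a higher mean in ISM1-/- lungs, with a median log2 difference of -0.02 over the 5. The part of plasmacytoid dendritic cells in the *Spib* level was not tested.

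Against 1.38% of all genes tested, 2 of 12 genes of survival and homing rose. One of them, *Tnfrsf13c*, which encodes the BAFF receptor that mature B cells need to survive, had a log2 fold change of 0.70 (adjusted p = 0.0751 by edgeR). *Tnfrsf13c* lay at 3.45, 2.82 and 3.21 CPM in WT and at 6.42, 4.53 and 4.43 CPM in ISM1-/- lungs, without overlap. *Cxcr5*, the receptor for the follicle chemokine *Cxcl13*, had a log2 difference of 0.40 with an adjusted p of 0.287 by edgeR and was also chosen after its values were seen.

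Of 7 inhibitory receptor genes, DESeq2 called 4, beside 6.88% of all genes called in either direction. In edgeR 0 of the 7 were called, with 4 at an unadjusted p under 0.05. The most abundant were *Ptpn6*, a phosphatase recruited by CD22 and similar receptors, at a log2 difference of 0.25, and *Fcgr2b*, the inhibitory Fc receptor for IgG, at 0.05. All 7 had a higher mean in ISM1-/- lungs, with a median log2 difference of 0.41. The groups did not overlap for 1 of the 7, beside 9.33% of all genes in this direction. That gene, *Btla* (0.53), was chosen after its values were seen. Of 13 other surface genes, DESeq2 called 4, beside the same 6.88% of all genes. In edgeR 0 of the 13 were called, with 6 at an unadjusted p under 0.05. The most abundant of them, *Cd24a* and *Cd38*, are also transcribed outside the B lineage and had log2 differences of -0.11 and -0.03. Of the 13, 10 had a higher mean in ISM1-/- lungs, with a median log2 difference of 0.37. Over all genes tested, the groups did not overlap for 9.33% in the higher and 12.3% in the lower direction. Among the 13 they did not overlap for 4 higher genes and 1 lower gene. Those, chosen after their values were seen, were *H2-Ob* (0.44), *Ltb* (0.66), *Fcrla* (0.55) and *Fcrl5* (0.86), and *Vpreb3* (-0.35).

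The antigen receptor itself was read from the constant regions. *Igkc*, the kappa light chain, rose by 1.12 on the log2 scale (adjusted p = 0.0104 by edgeR), from 45.2, 42.0 and 50.8 CPM in WT to 127, 88.8 and 84.8 CPM in ISM1-/- lungs. *Ighm*, the IgM heavy chain, had 109, 94.0 and 103 CPM in WT and 200, 151 and 102 CPM in ISM1-/- lungs, with overlap, and a log2 difference of 0.57 (adjusted p = 0.166 by edgeR). *Ighd*, the IgD chain of naive B cells, had a difference of 0.56 (adjusted p = 0.104 by edgeR). In ISM1-/- replicate 3, *Ighm* was thus within the WT range while *Igkc* was above it.

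Stages before and after the mature B cell were compared as well. Beside 1.38% of all genes tested, 2 of 7 plasma cell genes tested rose, *Jchain* and *Igha*. The rest were not called, with log2 differences of 0.43 (*Mzb1*), 0.29 (*Prdm1*), 0.08 (*Xbp1*), 0.08 (*Derl3*) and -0.13 (*Sdc1*). In ISM1-/- replicate 3, *Mzb1* was at 3.84 CPM, within its WT range of 3.77 to 3.96 CPM. *Jchain*, the joining chain of secreted IgA and IgM, had 4.11, 3.95 and 4.47 CPM in WT and 22.0, 14.1 and 18.6 CPM in ISM1-/- lungs, a log2 fold change of 2.13 (adjusted p = 0.00113 by edgeR). *Igha*, the IgA heavy chain, had 11.0, 14.3 and 17.2 CPM in WT and 68.5, 48.8 and 76.3 CPM in ISM1-/- lungs, a log2 fold change of 2.19 (adjusted p = 0.00193 by edgeR). For these 2 genes ISM1-/- replicate 3 was well above every WT library, unlike for the 9 B cell identity genes. Per library, the ratio of *Ighm* to *Igha* CPM was 9.92, 6.55 and 5.98 in WT and 2.93, 3.10 and 1.34 in ISM1-/- lungs, without overlap.

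**Figure D4:**
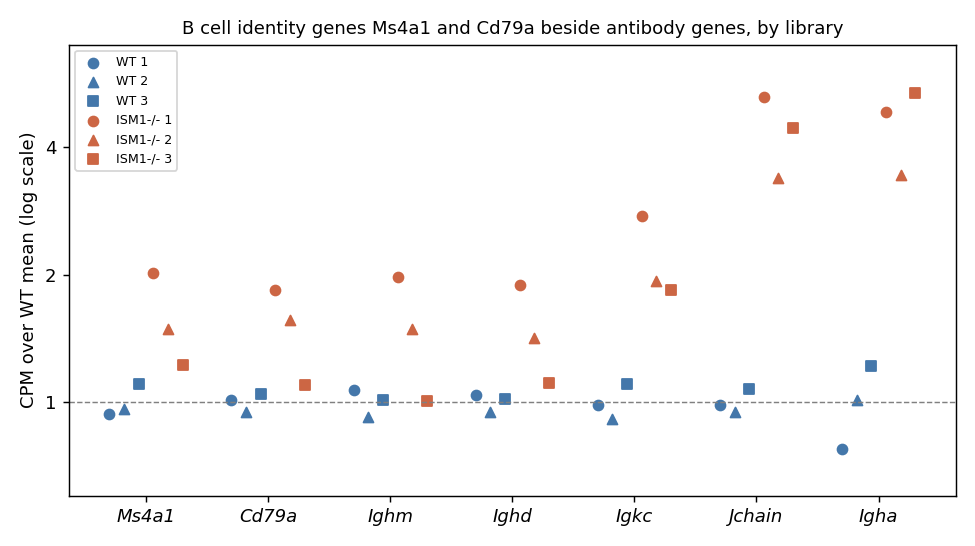
CPM over the WT mean (vertical axis, log scale) for *Ms4a1*, *Cd79a* and 5 antibody genes (horizontal axis) in each library (blue, WT; red, ISM1-/-; circles, triangles and squares, replicates 1, 2 and 3). ISM1-/- replicate 3 (red squares) lies near 1 for *Ms4a1*, *Cd79a*, *Ighm* and *Ighd*, and is far above WT for *Jchain* (18.6 CPM) and *Igha* (76.3 CPM).

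Of 6 germinal centre genes tested, edgeR called 0, with 0 at an unadjusted p under 0.05 and 0 called by DESeq2. *S1pr2* and *Fas*, the most abundant, had log2 differences of 0.12 and 0.17. Of 5 B-1 and innate-like genes, edgeR called 0, with 2 at an unadjusted p under 0.05 and 0 called by DESeq2, and *Cd9* and *Plscr1* had log2 differences of -0.02 and 0.05. The 2 were *Ctla4* (1.11) and *Bhlhe41* (0.36), both with a higher mean in ISM1-/- lungs and chosen after their values were seen. *Ctla4* was near the filter, at 8 to 39 counts or 0.193 to 0.917 CPM per library, and *Bhlhe41* overlapped between the groups. Which cells transcribed these 2 genes was not tested. Of 5 precursor B cell genes tested, edgeR called 0, with 3 at an unadjusted p under 0.05 and 0 called by DESeq2. Those 3 were *Rag1*, *Dntt* and *Rag2*, which rest on WT replicate 3. In that library *Vpreb1* was at 0.517 CPM, against 0.477 and 0.747 CPM in WT replicates 1 and 2. The T cell genes *Cd4* and *Cd8a* were at 13.0 and 14.5 CPM there, against at most 6.10 and 6.53 CPM in WT replicates 1 and 2. The cell source of the *Rag1*, *Rag2* and *Dntt* transcripts was not tested. *Cd93*, which endothelium also transcribes, was the most abundant precursor gene at a log2 difference of 0.14.

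Markers of other leukocytes were read in the same libraries. *Ptprc*, the pan-leukocyte gene of CD45, had 151, 128 and 138 CPM in WT and 208, 179 and 164 CPM in ISM1-/- lungs. *Ptprc* rose by 0.40 on the log2 scale (adjusted p = 0.0546 by edgeR). It was the 1 call among 5 pan-leukocyte genes, beside 1.38% of all genes tested that rose. Over *Ptprc*, the summed CPM of the 9 B cell identity genes was 1.01, 1.10 and 1.13 in WT and 1.38, 1.25 and 0.959 in ISM1-/- lungs. The ratio to *Ptprc* was therefore higher than in WT for ISM1-/- replicates 1 and 2 and lower for replicate 3. Ratios to the other pan-leukocyte genes were not computed. Unlike *Ptprc*, *Coro1a* and *Laptm5* were lower in ISM1-/- replicate 3 than in any WT library. *Coro1a* was at 89.1 CPM there against 98.4 to 111 CPM in WT, and *Laptm5* at 116 against 124 to 135 CPM. In that library *Cd52* and *Cd53* lay within their WT ranges.

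Of 9 T cell genes, DESeq2 called 3, beside 6.88% of all genes called in either direction. In edgeR 0 of the 9 were called, with 4 at an unadjusted p under 0.05. The median log2 difference of the 9 was 0.38. *Lck* and *Cd8a* were the most abundant, at log2 differences of 0.37 and 0.16. The summed T cell level was 52.1, 45.6 and 84.9 CPM in WT and 99.4, 76.4 and 60.1 CPM in ISM1-/- lungs, with WT replicate 3 the highest of the WT group. Over this T cell sum, the B cell identity sum was 2.93, 3.08 and 1.84 in WT and 2.90, 2.92 and 2.62 in ISM1-/- lungs. Those ratios overlapped between genotypes. Without WT replicate 3 the WT ratios were above all 3 ISM1-/- ratios, but only just for WT replicate 1. Its ratio of 2.93 was next to the 2.90 and 2.92 of ISM1-/- replicates 1 and 2.

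Of 5 NK cell genes, 4 rose in edgeR, beside 1.38% of all genes tested. These 4 were *Klrb1c*, *Klre1*, *Gzma* and *Eomes*, with log2 fold changes from 0.79 to 0.94. Their adjusted p ranged from 0.0375 for *Klrb1c* to 0.0659 for *Klre1*. The summed NK level was 40.6, 24.9 and 24.6 CPM in WT and 66.0, 49.5 and 48.5 CPM in ISM1-/- lungs, so that all ISM1-/- libraries were above all WT libraries. In the B cell identity sum, by contrast, ISM1-/- replicate 3 was near WT. Among 6 genes of lung epithelium and endothelium, *Scgb1a1*, the secretory protein of club cells, fell by 0.51 on the log2 scale (adjusted p = 0.0270 by edgeR), and the median over the 6 was 0.05. The part that the leukocyte content of each lung piece had in the B cell identity levels was not tested.

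**Figure D5:**
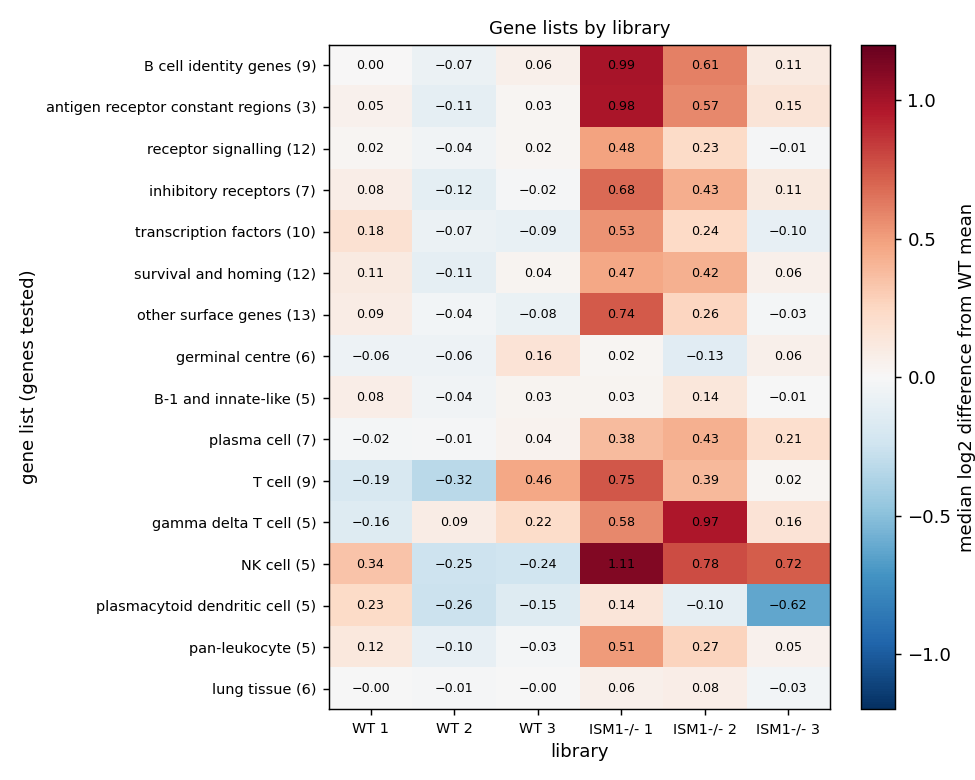
Median log2 difference from the WT mean (colour scale and printed value) for the B cell identity genes and other gene lists (vertical axis, number of genes tested in brackets) in each library (horizontal axis). The B cell identity genes read 0.99, 0.61 and 0.11 in ISM1-/- replicates 1 to 3, and the lung tissue genes lie between -0.03 and 0.08 in all libraries.

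Outside the 9 genes, the pattern over the 6 libraries was matched most closely by the following 10 of 15867 genes whose mean reached 1 CPM, by Pearson correlation of log2 CPM with the mean of the 9. They were *Mtap* (0.996), *Ighd* (0.994), *Mzb1* (0.993), *Arhgap45* (0.993), *Ighm* (0.993), *Iglc2*, *Bcdin3d*, *Pip4k2b*, *Mcmbp* and *Tbc1d10c* (0.990). The correlation ignores the size of a difference. *Mtap*, an enzyme of methionine salvage, moved only from 19.6 to 20.7 CPM between its lowest and highest library (log2 difference 0.04), while *Iglc2*, a lambda light chain constant region, had a difference of 0.72. Of the 10, 3 are antibody constant region genes and *Mzb1* encodes a chaperone of antibody assembly. None of the 10 had an adjusted p under 0.1 in edgeR.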

How the data were processed

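RNA of whole lungs of the WT and ISM1-/- groups, each with 3 libraries, was sequenced, and each library was placed in its group by its genotype label. The labels number the libraries of a genotype without naming animals. The p-values set the genotype difference against the variation between these libraries. Poly-A selected, strand-specific read pairs were mapped by the authors to GRCm38 with STAR, and they deposited raw counts per gene without normalization and FPKM values, which are counts divided by gene length and library total. The counting program, annotation release and strand setting are not given in the sources used here. The counts were tested with edgeR 4.0.16 in R 4.3.3. A gene was kept if any 1 library reached 0.5 CPM, TMM set the library scale, and the quasi-likelihood test was run with Benjamini-Hochberg adjustment over all 18689 genes. An adjusted p under 0.1 was called. Log2 fold changes are ISM1-/- over WT. CPM is TMM-scaled, and FPKM was used only to compare levels between genes. DESeq2 1.42.0, other filters and scalings, removal of antibody genes, a replicate block and the removal of each library were alternatives. Each pair of libraries differed by more than sampling noise in a chi-square comparison.

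The 9 genes and all lists were chosen with earlier results of these data known, so no list was tested as a set. The genes named are the 9 members, *Ism1*, and in each list those with an adjusted p under 0.1 or otherwise the 2 with the highest mean CPM, plus the 10 with the most similar pattern; some genes that this rule names are not reported here. Total counts of 37606133 to 42345042 per library limit counting error only.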

Additional observations from a re-analysis of the deposited data

How the results depend on the processing

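Of the 9 B cell identity genes, 3 were called with all libraries. That count was 0 at an adjusted p under 0.05, 0 with a 2-fold minimum, 5 with DESeq2 and 8 with no filter beyond at least 1 count, and it ran from 0 to 9 when libraries were left out in turn. The share of all genes called higher was 1.38% with all libraries, 2.49% with DESeq2, 1.77% with no filter and 0.188% to 3.07% when libraries were left out. Of the 57 other B lineage genes, 6 were called, 1 at an adjusted p under 0.05, 1 with a 2-fold minimum, 17 with DESeq2, 24 with no filter beyond 1 count, and 1 to 30 when libraries were left out in turn. The share of all genes called in either direction was 4.72%, 6.88% with DESeq2, 5.11% with no filter and 0.806% to 7.91% when libraries were left out. The cause of these changes was not tested. RLE scaling, stricter filters and removal of antibody genes left 3 of 9 called. Over the 9 genes and 13 alternative settings, 88 of 117 values stayed on their side of the threshold, 15 were no longer called, 14 became called and 0 changed direction. The median log2 fold change ran from 0.36 without ISM1-/- replicate 1 to 0.81 without ISM1-/- replicate 3.

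Libraries of the 2 genotypes that share a replicate number come from different mice. Deviations of same-numbered libraries from their group means had correlations of -0.0405, 0.0310 and 0.00101, against -0.0614 to 0.0507 for the other pairs. With 3 libraries per genotype, these values cannot show whether same-numbered libraries were handled together. With the replicate number as a block, 4 of the 9 genes and 13 of the 57 other B lineage genes were called, and the share of all genes called higher was 2.13%, or 5.91% in either direction.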
